A study of Homo sapiens with 12 samples.

Results

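Mutually exclusive exons are neighbouring exons of which a mature transcript carries 1 and not the other. The deposited event list of this kind holds 520 events, and 388 of them, in 250 genes, had a mean of at least 20 reads per sample and are described here. The reads of an event are the mean of the 2 junctions of exon 1 plus the mean of the 2 junctions of exon 2. The other 132 events were under this minimum. Just inside it lay events of PWWP2A, with a mean of 20.1 reads per sample, and of ENSG00000121848.9, with 20.2 reads. Just outside it lay events of ANKRD10, with 19.8 reads, and of GTF2H1, with 19.5 reads. Of the 388 members, 204 share a junction with another member, so counts of members are not counts of independent exon choices.

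The cells were AsPC-1, an established epithelial line of human pancreatic cancer, and there were 12 samples in 4 groups of 3 replicates. Cells received either an siRNA against ARNT (siARNT) or a scrambled one (siControl) by transfection, and the wells were split on the next day. They were then held at 21% O2 (normoxia) or at 1% O2 for 24 h (hypoxia), and RNA was taken 48 h after transfection in every group. All 4 groups were therefore transfected cells of a single line. The labels do not say whether each replicate was a well of its own, and p-values measure the spread between replicate samples of this line.

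In textbook cases the exons of such a pair arose by duplication of an ancestral exon, have the same or nearly the same length, and swap a stretch of protein without a change of reading frame. The choice between them is set by splicing regulators that bind RNA near the exons, and by splice sites that lie too close together to be joined to each other. ARNT pairs with each HIF alpha subunit to form the factors that activate transcription under low oxygen. The series asks which isoforms change in hypoxia and which of those changes need ARNT.

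The exon pairs closest to the textbook form are shown first. They were picked after the values were seen, as pairs of equal length whose exons are wholly coding and whose forms are both annotated, with balanced junction reads as defined below. The sequences were cut from GENCODE 29 transcripts on GRCh38 and are written 5' to 3' in the sense of the transcript. Capitals mark the bases that differ between the 2 exons of a pair at the same position, without gaps. Exon 1 is in every event the exon with the lower genome coordinate, so on the minus strand it is the downstream exon.
ACTN4 exon 1, upstream in the transcript, chr19:38710257-38710342, + strand: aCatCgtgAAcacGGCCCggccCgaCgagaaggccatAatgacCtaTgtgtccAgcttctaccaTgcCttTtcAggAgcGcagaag
ACTN4 exon 2, downstream in the transcript, chr19:38711276-38711361, + strand: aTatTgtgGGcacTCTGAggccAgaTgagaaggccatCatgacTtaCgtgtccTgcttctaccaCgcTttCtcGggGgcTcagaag
RAB6A exon 1, downstream in the transcript, chr11:73718613-73718718, - strand: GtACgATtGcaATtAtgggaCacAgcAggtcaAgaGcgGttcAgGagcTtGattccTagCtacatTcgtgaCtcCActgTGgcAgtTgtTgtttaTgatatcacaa
RAB6A exon 2, upstream in the transcript, chr11:73718785-73718890, - strand: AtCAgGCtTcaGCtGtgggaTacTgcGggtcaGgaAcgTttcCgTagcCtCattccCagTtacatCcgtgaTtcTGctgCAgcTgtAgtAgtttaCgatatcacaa
MAPK14 exon 1, upstream in the transcript, chr6:36095987-36096066, + strand: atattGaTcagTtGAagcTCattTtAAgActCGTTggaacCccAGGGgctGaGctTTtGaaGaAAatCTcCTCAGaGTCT
MAPK14 exon 2, downstream in the transcript, chr6:36100188-36100267, + strand: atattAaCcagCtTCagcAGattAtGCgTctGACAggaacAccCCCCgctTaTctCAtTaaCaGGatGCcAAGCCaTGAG
MAPK8 exon 1, upstream in the transcript, chr10:48424088-48424159, + strand: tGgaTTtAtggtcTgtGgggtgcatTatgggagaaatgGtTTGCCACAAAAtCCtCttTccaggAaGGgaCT
MAPK8 exon 2, downstream in the transcript, chr10:48424514-48424585, + strand: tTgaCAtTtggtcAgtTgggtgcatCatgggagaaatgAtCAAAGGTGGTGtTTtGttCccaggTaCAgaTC
GALNT7 exon 1, upstream in the transcript, chr4:173297795-173297977, + strand: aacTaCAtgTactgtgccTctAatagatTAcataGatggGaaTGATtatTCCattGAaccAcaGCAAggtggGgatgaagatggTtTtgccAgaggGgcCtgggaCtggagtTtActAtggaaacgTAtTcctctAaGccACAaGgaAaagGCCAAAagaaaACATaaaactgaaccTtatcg
GALNT7 exon 2, downstream in the transcript, chr4:173298115-173298297, + strand: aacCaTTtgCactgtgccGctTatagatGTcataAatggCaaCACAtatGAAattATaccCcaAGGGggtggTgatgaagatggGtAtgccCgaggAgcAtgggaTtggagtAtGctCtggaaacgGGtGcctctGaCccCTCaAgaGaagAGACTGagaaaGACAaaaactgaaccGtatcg
ACP1 exon 1, upstream in the transcript, chr2:272037-272150, + strand: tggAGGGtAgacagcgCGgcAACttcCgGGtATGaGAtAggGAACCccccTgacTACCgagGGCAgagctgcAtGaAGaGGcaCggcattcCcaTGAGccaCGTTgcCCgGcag
ACP1 exon 2, downstream in the transcript, chr2:272192-272305, + strand: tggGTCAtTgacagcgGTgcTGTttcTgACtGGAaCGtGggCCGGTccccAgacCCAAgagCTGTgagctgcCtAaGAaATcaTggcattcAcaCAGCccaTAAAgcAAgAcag

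The ACTN4 exons are 86 bases long and identical at 65 positions (75.6%), and the RAB6A exons are 106 bases long and identical at 75 (70.8%). The GALNT7 exons share 128 of 183 bases (69.9%) and the MAPK8 exons 44 of 72 (61.1%). The ACP1 exons share 62 of 114 bases (54.4%) and the MAPK14 exons 41 of 80 (51.2%). The pairs of SCN2A (92 bases, 78.3% identical), MTHFSD (57 of 114 bases identical) and PITPNA (8 bases, 75.0% identical) met the same conditions and are not printed. The exons of a pair lay close together, with 41 bases between them in ACP1, 66 in RAB6A, 137 in GALNT7, 354 in MAPK8 and 933 in ACTN4, and 4121 in MAPK14.

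Psi is the share of the exon 1 form among the reads of both forms of an event, and runs from 0 to 1. ACTN4 encodes alpha-actinin, which cross-links actin filaments. Listed as replicates A, B and C, its psi was 0.956, 0.954 and 0.960 at 21% O2 and 0.965, 0.962 and 0.962 at 1% O2 in siControl cells, and 0.930, 0.940 and 0.934 at 21% O2 and 0.942, 0.937 and 0.952 at 1% O2 in siARNT cells. The upstream exon was thus in nearly all ACTN4 reads, and each siARNT library lay below each siControl library at the same oxygen level. The event had a mean of 1178.8 reads per sample. ACTN4 held a second balanced member, on other, wholly coding exons, which is not described here.

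RAB6A encodes a small GTPase of the Golgi, and its exon pair gives the forms known as RAB6A and RAB6A prime. The downstream exon had a psi of 0.326, 0.327 and 0.329 at 21% O2 and 0.281, 0.275 and 0.297 at 1% O2 in siControl cells, and 0.325, 0.303 and 0.285 at 21% O2 and 0.321, 0.279 and 0.308 at 1% O2 in siARNT cells. The upstream exon was the major form in every library. In siControl the hypoxia libraries all lay below the normoxia libraries, while in siARNT the ranges of the oxygen levels overlapped.

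MAPK14 and MAPK8 encode MAP kinases that respond to stress, and their exon pairs lie in the kinase domain. For MAPK14 the upstream exon was the major form, with a psi of 0.831 ± 0.00533 at 21% O2 and 0.817 ± 0.00898 at 1% O2 in siControl cells, and 0.779 ± 0.0301 at 21% O2 and 0.787 ± 0.0483 at 1% O2 in siARNT cells (SD, n = 3). For MAPK8 the downstream exon was the major form: psi was 0.0413 ± 0.00645, 0.0300 ± 0.0139, 0.0245 ± 0.0149 and 0.0227 ± 0.00822 in the same order (SD, n = 3). The 2 MAPK8 junctions of the upstream exon held a mean of 3.67 and 3.42 reads per sample, so its share rests on few reads.

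GALNT7 encodes a glycosyltransferase of mucin-type O-glycosylation. Its psi was 0.167 ± 0.0299 at 21% O2 and 0.182 ± 0.00632 at 1% O2 in siControl cells, and 0.215 ± 0.0267 at 21% O2 and 0.225 ± 0.0111 at 1% O2 in siARNT cells (SD, n = 3). The siARNT libraries lay above the siControl libraries at each oxygen level without overlap. ACP1 encodes the low molecular weight phosphatase whose fast and slow isozymes differ by this exon pair. Its psi was 0.742 ± 0.0184, 0.721 ± 0.00855, 0.726 ± 0.0105 and 0.704 ± 0.0125 in the same order (SD, n = 3). In siARNT cells the 2 oxygen levels did not overlap, by a margin of less than the SDs, and the groups overlapped in the other 3 comparisons.

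**Figure D1:**
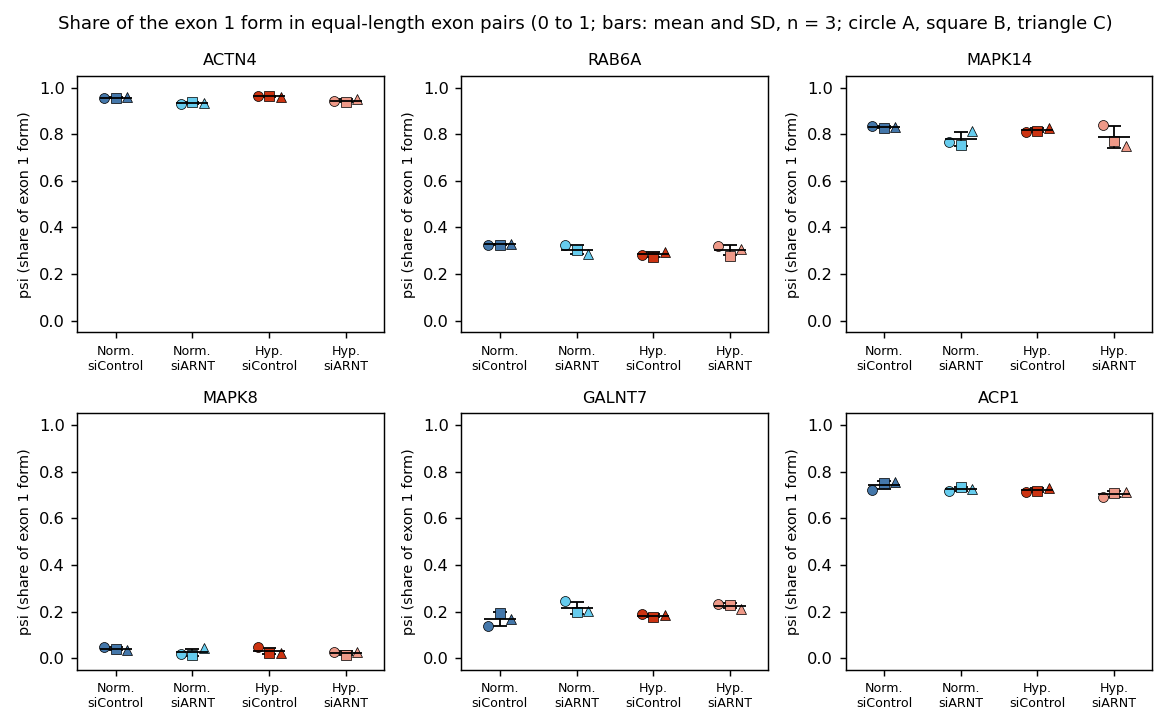
Psi of the 6 exon pairs printed above, on an axis from 0 to 1, for each of the 12 samples (circle, square and triangle for replicates A, B and C), with the mean and SD of each group of 3. ACTN4, MAPK14 and ACP1 lie above 0.6 in every sample, and RAB6A, GALNT7 and MAPK8 lie below 0.4.

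Of 35 symbols on a list of genes with textbook mutually exclusive exons, which holds 1 gene under both its older and its newer symbol, 7 had a member event. The list included FGFR1, FGFR2, FGFR3, PKM, TPM1, TPM2, TPM3 and CDC42, and for 28 of its symbols no event was analysed here. Beside ACTN4, MAPK14 and MAPK8 the members were in MEF2A, DNM1, SLC25A3 and U2AF1. The transcription factor gene MEF2A had exons of 132 and 138 bases and a psi of 0.716 ± 0.0667 at 21% O2 and 0.713 ± 0.0351 at 1% O2 in siControl cells, and 0.675 ± 0.00635 at 21% O2 and 0.633 ± 0.119 at 1% O2 in siARNT cells (SD, n = 3). DNM1, which encodes a dynamin that severs membrane necks, had exons of 139 bases each and group means between 0.871 and 0.894. SLC25A3, the mitochondrial phosphate carrier, used almost only exon 2 (122 bases), with group means of psi between 0.0106 and 0.0135. Its exon 1 was longer and only partly coding. U2AF1, a subunit of the factor that recognises the end of introns, used almost only exon 1 (67 bases). Its group means lay between 0.996 and 0.998, in an event whose other exon was 38 bases long. A second balanced U2AF1 member paired that 38-base exon with a further exon and is not described here. Neither U2AF1 event paired exons of equal length. The list is one of genes, so these events need not be the textbook pairs.

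Across all 388 members the psi averaged over samples was under 0.1 in 69, over 0.9 in 85 and between these in 234. The minor form made up at least 0.1 of the reads in 60.3% of the members, against 25.3% of the exon skips, 21.3% of the multiple exon skips, 24.1% of the alternative 3' sites and 31.7% of the alternative 5' sites with at least 20 reads. The SD of psi within a group had a median of 0.0239 in the members and 0.0155 in the exon skips. These are descriptions, and the kinds of event were not tested against each other. The members' share of 60.3% differed between the classes of junction balance defined below, where the counts by class are given.

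The junction reads set the members apart from the textbook picture. An exon used in full should be joined at its left and right ends about equally often, yet the stronger junction of an exon held a median of 4.90 times the reads of the weaker junction for exon 1 and 6.79 times for exon 2. With a limit of 3-fold, chosen after the values were seen, 94 members (24.2%) in 85 genes were balanced at both exons. In 121 members (31.2%) the outer junctions, from the left flank to exon 1 and from exon 2 to the right flank, were each more than 3 times as strong as the other junction of the same exon. In 4 members the inner junctions were the strong ones, and 169 members fell in none of these classes. A direct junction between exon 1 and exon 2 was listed among the other event files for 9 of the 388 members, with a median of 4.17 reads per sample.

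The outer-junction class included the abundant housekeeping transcripts. In GAPDH, the glycolytic enzyme, the left flank was joined to exon 1 by a mean of 6968 reads and exon 2 to the right flank by 19123 reads, but exon 1 to the right flank by 16.5 reads and the left flank to exon 2 by 66.5 reads per sample. In ATP5F1B, a subunit of the ATP synthase, the outer junctions held 3504 and 3185 reads and the others 28.7 and 1.08 reads. HNRNPA2B1, itself a splicing regulator, and the ribosomal protein gene RPS15A had events of the same class. ENSG00000263809, the member with the most reads (15427 per sample), was also of this class, with a psi between 0.429 and 0.497 in all 12 samples. Other genes with high reads were the ribosomal protein genes RPS12, RPL11 and RPL8, and ENSG00000267881, with a mean psi of 0.0146, 0.0431, 0.989 and 0.0357. Ribosomal protein genes have near-identical pseudogenes, so their junction reads are uncertain.

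Annotation and coverage followed the same split. The build of the event coordinates is not named in the files, so exons were matched to GENCODE 29 by gene, length and spacing, and 199 members were found. Both forms were annotated in 58 of the 61 balanced members found and in 31 of the 67 outer-junction members found. An annotated transcript held both exons together in 1 of the 61 and in 33 of the 67, and an annotated exon lay between them in 3 and in 44. In 87 of the 121 outer-junction members, exon 1 or exon 2 was joined to some other exon by more reads than to the flank named in the event, against 4 of the 94 balanced members. Weak junctions to those flanks define the outer-junction class, so this contrast follows in part from the definition and is not separate support. The intron between the exons had a median of 551.5 bases in balanced members and 2268 bases in outer-junction members. Psi lay between 0.1 and 0.9 in 48 of the 94 and in 102 of the 121, and between 0.4 and 0.6 in 5 and in 51. Each form is the mean of its 2 junctions, so in outer-junction members psi rests mainly on the 2 outer junctions. These psi counts can therefore also follow from the definition and are not separate support.

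The exon 1 share of exon coverage, a second deposited measure, tracked psi across the balanced members (Spearman rho 0.950, n = 94 events) more closely than across the outer-junction members (rho 0.710, n = 121 events). Both measures come from the same libraries. The 2 exons had equal lengths in 26 members, 10 of them balanced. The length difference was a multiple of 3 in 156 of 388 members (40.2%), in 43 of the 94 balanced members (45.7%) and in 55 of the 121 outer-junction members (45.5%).

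**Figure D2:**
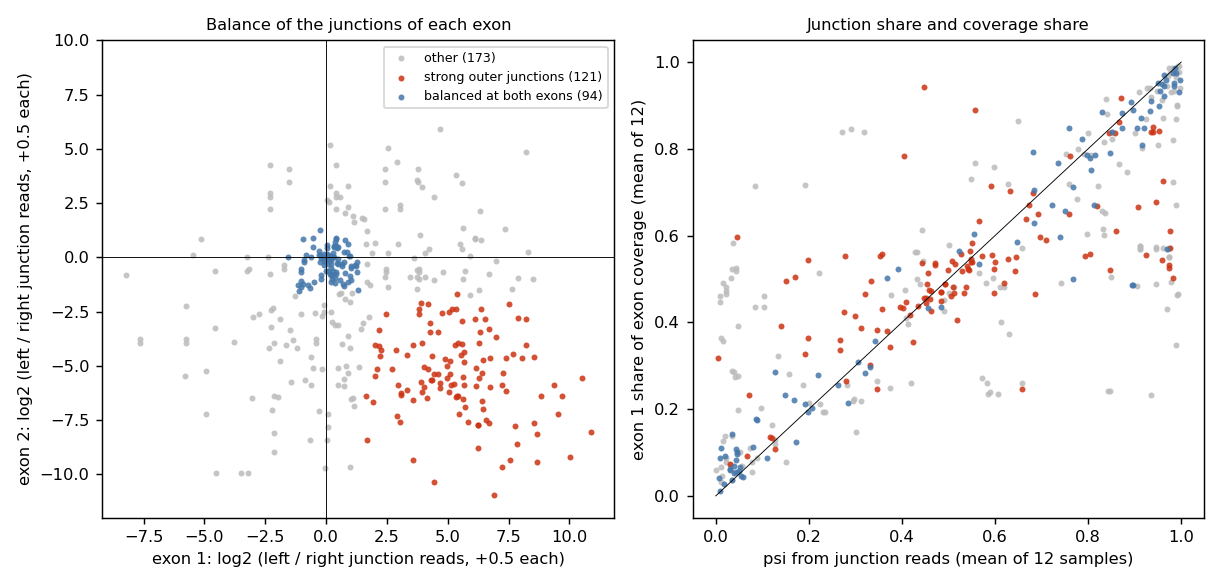
Left panel, log2 ratio of left to right junction reads (0.5 added to each) of exon 1 against that of exon 2 for the 388 members, where the 94 balanced members sit around 0 and the 121 outer-junction members at the lower right. Right panel, psi against the exon 1 share of exon coverage, both as means of 12 samples, with the line of equality, which the balanced members follow more closely (rho 0.950) than the outer-junction members (rho 0.710).

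The siRNA target was measured before the comparisons. In siControl cells ARNT stood at 62.4 ± 1.53 CPM (gene counts scaled to the library total) at 21% O2 and at 69.1 ± 3.81 CPM at 1% O2 (SD, n = 3). In siARNT cells it stood at 13.4 ± 0.56 and 15.3 ± 1.04 CPM (SD, n = 3), a log2 fold change for ARNT of -2.22 (adjusted p 8.99e-09) and -2.17 (adjusted p 2.65e-09). In bulk RNA a fall in fewer cells and a fall in RNA per cell cannot be told apart. The libraries held 38.5 to 84.3 M gene counts, so events of high and low reads differ widely in precision. Of the markers listed, KRT8, KRT18, KRT19, EPCAM, CDH1 and MUC1 were present in every library (at least 13.7 CPM), as was VIM (1460 to 2420 CPM), while CDH2, COL1A1, COL1A2, FAP, PTPRC and CD3E were at most at 0.234 CPM, CD68 at most at 1.02 CPM and VWF at 0.886 CPM. PECAM1 was not matched by symbol.

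Hypoxia in siControl cells addresses which exon choices shift under low oxygen with ARNT present. None of the 388 members was called at an adjusted p under 0.05 by edgeR's quasi-likelihood test, fitted and adjusted over 42081 events of 5 kinds, of which 0.0428% were called. At an unadjusted p under 0.05 there were 23 members, or 5.93%, against 4.96% of all events, and psi was lower in hypoxia in 16 of these 23. The 23 lay in 18 genes. Groups did not overlap in 60 members (15.5%), against 10.6% of all events. An absolute difference of at least 0.1 without overlap was seen in 14 members (3.61%), against 1.44% of all events. Neither DESeq2 nor limma called a member. Without hypoxia siControl replicate A, 1 event of ENSG00000122497.13 was called, with a log2 odds ratio of -2.91 (adjusted p 0.0367).

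RAB6A was among the members with the lowest p and had balanced junctions. The psi of its downstream exon was 0.043 lower in hypoxia, a log2 odds ratio of -0.29 (95% interval -0.50 to -0.09, p 0.00846, adjusted p 0.869), and the left and right junctions taken alone gave -0.29 and -0.30. In siARNT the log2 odds ratio was -0.01 (95% interval -0.27 to 0.24). The difference between these, the interaction, was 0.28 (95% interval -0.04 to 0.61, p 0.0836, adjusted p 1.0).

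ADGRF1, an adhesion receptor coupled to G proteins, had the lowest p of the members here. The junctions of its event were not balanced at both exons. Its psi was 0.425, 0.514 and 0.497 in normoxia siControl and 0.297, 0.341 and 0.258 in hypoxia siControl, with no overlap. The log2 odds ratio was -1.05 (SE 0.29, p 0.00323, adjusted p 0.674). Its reads per sample ran from 8.5 to 107, with a mean of 48.1, and the gene's own level fell with siARNT by 1.17 on the log2 scale at 21% O2 (adjusted p 6.01e-07) and by 1.5 at 1% O2 (adjusted p 3.31e-08).

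OGDH, the oxoglutarate dehydrogenase subunit of the citric acid cycle, had 2 members on the same exons of 91 and 103 bases with different right flanks. The event with balanced junctions (mean of 265.79 reads) had a psi of 0.253, 0.256 and 0.222 at 21% O2 and 0.199, 0.204 and 0.188 at 1% O2 in siControl cells, and 0.169, 0.168 and 0.215 at 21% O2 and 0.147, 0.165 and 0.107 at 1% O2 in siARNT cells. The values of normoxia siControl were the highest and those of hypoxia siARNT the lowest, without overlap with any other group. The log2 odds ratio was -0.40 for hypoxia in siControl (95% interval -0.80 to 0.00, adjusted p 0.953) and -0.57 for siARNT in normoxia (95% interval -0.95 to -0.19, p 0.00673, adjusted p 0.421). It was -0.63 for siARNT in hypoxia (95% interval -1.12 to -0.15, p 0.0148, adjusted p 0.784), so none of these passed the threshold. The hypoxia comparison and the siARNT comparison in normoxia share the normoxia siControl samples.

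Hypoxia in siARNT cells asks the same with ARNT reduced. No member was called, and no event of any kind was (0.0% of 42081). At an unadjusted p under 0.05 there were 14 members in 12 genes (3.61% of members, against 4.25% of all events). Groups did not overlap in 38 members (9.79%), against 9.3%, and did so with a difference of at least 0.1 in 10 (2.58%), against 1.15%. The lowest p was that of CENPC, a centromere protein gene, in a balanced event of 64.3 reads per sample. Psi was 0.0421, 0.0522 and 0.0833 in normoxia siARNT and 0.178, 0.213 and 0.186 in hypoxia siARNT, a log2 odds ratio of 1.95 (SE 0.52, p 0.00275, adjusted p 0.882). The 2 junctions of exon 1 held a mean of 8.42 and 5.17 reads per sample, and in hypoxia siControl psi was 0.179, 0.163 and 0.0408, so replicate C lay apart from A and B. No member was called by DESeq2 or limma.

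siARNT in normoxia had the most members at low p. None was called by edgeR's quasi-likelihood test (0.131% of all events were), 32 had an unadjusted p under 0.05 (8.25%, against 7.13% of all events), and 22 of these had a lower psi with siARNT. The 32 lay in 24 genes. Groups did not overlap in 77 members (19.8%), against 12.8% of all events, and did so with a difference of at least 0.1 in 14 (3.61%), against 2.01%. In 31 of the 32 the left and the right junctions, taken alone, gave the same direction. Among members at an unadjusted p under 0.05 in the other comparisons, this was so in 17 of 23 for hypoxia in siControl, 11 of 14 for hypoxia in siARNT, 12 of 16 for siARNT in hypoxia and 6 of 7 for the interaction. All these members were picked for a low p on the mean of the same junctions, which favours agreement. The counts are therefore not separate support, and no share over all members is given beside them.

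HDDC2, which encodes a protein with an HD domain, came closest to a call. In its event with a mean of 208.42 reads psi was 0.525, 0.501 and 0.519 at 21% O2 and 0.568, 0.592 and 0.525 at 1% O2 in siControl cells, and 0.650, 0.625 and 0.649 at 21% O2 and 0.688, 0.680 and 0.662 at 1% O2 in siARNT cells. Every siARNT library lay above every siControl library, at either oxygen level. The log2 odds ratio was 0.74 in normoxia (95% interval 0.45 to 1.03, p 0.000112, adjusted p 0.0651) and 0.72 in hypoxia (95% interval 0.37 to 1.08, p 0.000883, adjusted p 0.259). The interaction was -0.02 (95% interval -0.49 to 0.45).

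In normoxia the HDDC2 event passed the threshold when both forms needed at least 5 reads (adjusted p 0.0246), with the sum of the junctions (0.0158) and with the right junctions alone (0.0163), but not with DESeq2 or limma. The left flank was joined to exon 2 by a mean of 1.42 reads per sample. The other side of exon 2 held 170 reads. The event was thus not balanced, and the share rests mainly on the right junctions (219 reads for exon 1). Exon 1 was joined to another exon by a mean of 272.3 reads per sample, more than to the right flank. Psi leaves those reads out, and the exon pair was not found in the annotation. The gene itself was lower with siARNT, by 0.57 on the log2 scale at 21% O2 (SE 0.096, adjusted p 0.002) and by 0.44 at 1% O2 (SE 0.097, adjusted p 0.00498). A second event of HDDC2 shares 3 junctions with the event above and differed in the same direction, by 0.0447 in psi in normoxia.

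OPN3, an opsin gene, held 12 members, the most of any gene, which share exons and junctions and are not independent. The event with the largest difference for siARNT had a psi of 0.863, 0.774 and 0.865 at 21% O2 and 0.831, 0.731 and 0.596 at 1% O2 in siControl cells, and 0.604, 0.412 and 0.550 at 21% O2 and 0.586, 0.585 and 0.510 at 1% O2 in siARNT cells. The siRNA groups did not overlap at either oxygen level. In normoxia the log2 odds ratio was -2.12 (95% interval -3.14 to -1.09, p 0.000765, adjusted p 0.179). In hypoxia the ratio was -1.13 (95% interval -2.21 to -0.04, adjusted p 0.819). The event had a mean of 31.5 reads per sample and exon 2 spans 7665 bases.

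The ACTN4 pair printed above stood out among the textbook pairs, since its junctions were balanced and its reads many. The log2 odds ratio of siARNT was -0.60 in normoxia (95% interval -0.97 to -0.23, p 0.00424, adjusted p 0.36) and -0.61 in hypoxia (95% interval -1.04 to -0.17, p 0.0105, adjusted p 0.72). The group mean of psi was 0.957 in siControl and 0.935 in siARNT in normoxia, a difference that did not pass the threshold over all events. For GALNT7 the ratio was 0.57 in normoxia (95% interval 0.16 to 0.97, adjusted p 0.51) and 0.39 in hypoxia (95% interval -0.04 to 0.81, adjusted p 0.819). For MAPK14 it was -0.50 in normoxia (95% interval -0.96 to -0.04, adjusted p 0.66) and -0.20 in hypoxia (95% interval -0.70 to 0.30, adjusted p 0.897). For ACP1 all 4 intervals of hypoxia and siARNT lay between -0.37 and 0.12, so changes of the odds beyond these bounds lie outside the intervals.

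TIMM50, part of the mitochondrial import machinery, had a psi of 0.298, 0.293 and 0.336 in normoxia siControl and 0.387, 0.421 and 0.416 in normoxia siARNT, with no overlap (log2 odds ratio 0.62, SE 0.14, adjusted p 0.198). Its exon 1 was joined to the right flank by a mean of 0.917 reads, so the event was of the outer-junction class. TASOR, a component of the HUSH silencing complex, had a psi of 0.521, 0.452 and 0.438 in normoxia siControl and between 0.533 and 0.658 in all 9 other libraries. The junctions of the TASOR event were not balanced at both exons. Its log2 odds ratio was 0.73 for siARNT in normoxia (SE 0.20, adjusted p 0.349), 0.65 for hypoxia in siControl (SE 0.21, adjusted p 0.891) and -0.71 for the interaction (SE 0.32, adjusted p 1.0). These 3 comparisons share the normoxia siControl libraries.

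**Figure D3:**
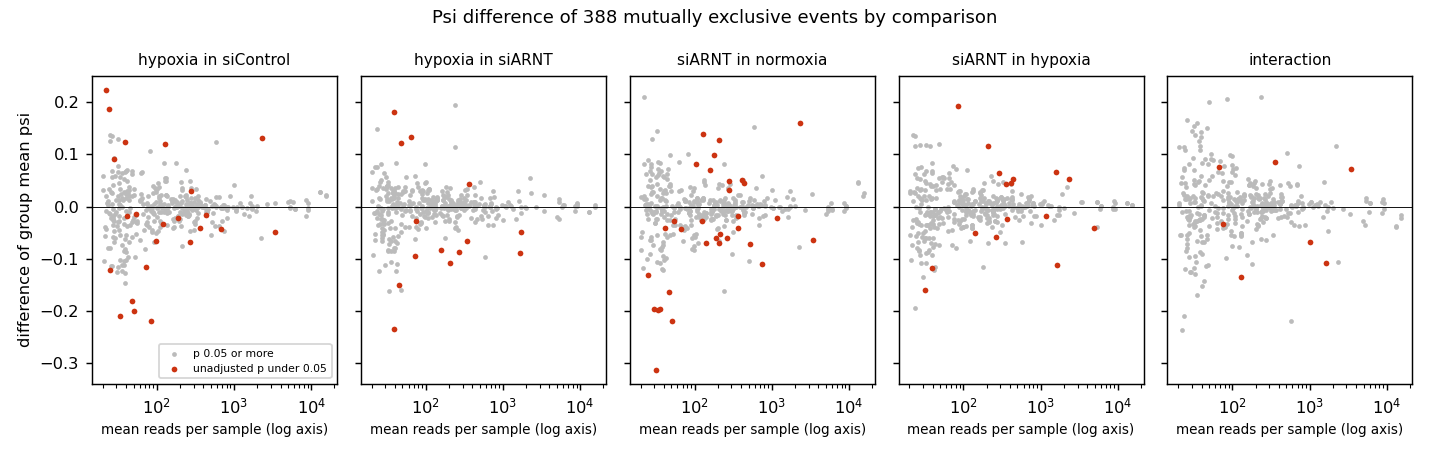
Difference of group mean psi of the 388 members against their mean reads per sample (log axis) in the 5 comparisons, with members at an unadjusted p under 0.05 in red. The differences scatter on both sides of 0 and widen at low reads, and no member was called after adjustment in any of the panels.

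siARNT in hypoxia gave no call either (0.0547% of all events were called). At an unadjusted p under 0.05 there were 16 members in 12 genes (4.12% of members, against 5.64% of all events), 8 in each direction. Groups did not overlap in 55 members (14.2%), against 10.6%, and did so with a difference of at least 0.1 in 15 (3.87%), against 1.79%. HDDC2 had the lowest p, followed by its second event. RPS24, a ribosomal protein gene, had a psi of 0.366, 0.379 and 0.368 in hypoxia siControl and 0.255, 0.355 and 0.167 in hypoxia siARNT, so the group means differed by -0.112 and replicate B of siARNT lay close to the siControl libraries (adjusted p 0.701). The RPS24 event was of the outer-junction class and its exon 1 form was not annotated. Its exon 1 was joined to another exon by a mean of 492.8 reads per sample. DESeq2 called 1 member, an event of RPS12, and limma called none.

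For the interaction, which asks whether the response to hypoxia depends on ARNT, no member and no other event was called (0.0% of 42081), and 7 members had an unadjusted p under 0.05 (1.8%, against 3.89% of all events). The lowest was ATP5PO, a subunit of the ATP synthase. Its psi was 0.0332, 0.0670 and 0.0684 at 21% O2 and 0.0110, 0.0104 and 0.0236 at 1% O2 in siControl cells, and 0.0202, 0.00731 and 0.0163 at 21% O2 and 0.1, 0.0261 and 0.0479 at 1% O2 in siARNT cells. Psi was lower in hypoxia in siControl and higher in hypoxia in siARNT, each without overlap, and the interaction was 4.02 (SE 0.88, p 0.000652, adjusted p 1.0). The left flank was joined to exon 2 by a mean of 0.333 reads and to exon 1 by 11.8 reads per sample, and the left junctions alone gave the opposite sign (-3.12, from a count near 0). Its exon 2 is listed with 12 bases and no intron between the exons. DESeq2 called this event, with an adjusted p of 0.036, as did edgeR's quasi-likelihood test with the replicate letter as a block within each siRNA, with an adjusted p of 0.0425, and limma called no member.

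RPS12, a ribosomal protein gene, shows how the junctions of an event can part. Psi of 1 of its 4 events was 0.755, 0.948 and 0.744 in normoxia siControl, between 0.939 and 0.962 in hypoxia siControl, and over 0.95 in all 6 siARNT libraries. The left flank was joined to exon 1 by a mean of 4284 reads and exon 1 to the right flank by 71.6 reads per sample. The exon 1 share of coverage was 0.232 against a mean psi of 0.934. For siARNT in normoxia the log2 odds ratio was 3.40 (SE 0.72, adjusted p 0.204), and without normoxia siControl replicate B it was 3.82 and was called (adjusted p 0.0194). For siARNT in hypoxia it was 7.86 (SE 3.14, adjusted p 0.819), and DESeq2 called it (adjusted p 0.00463).

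**Figure D4:**
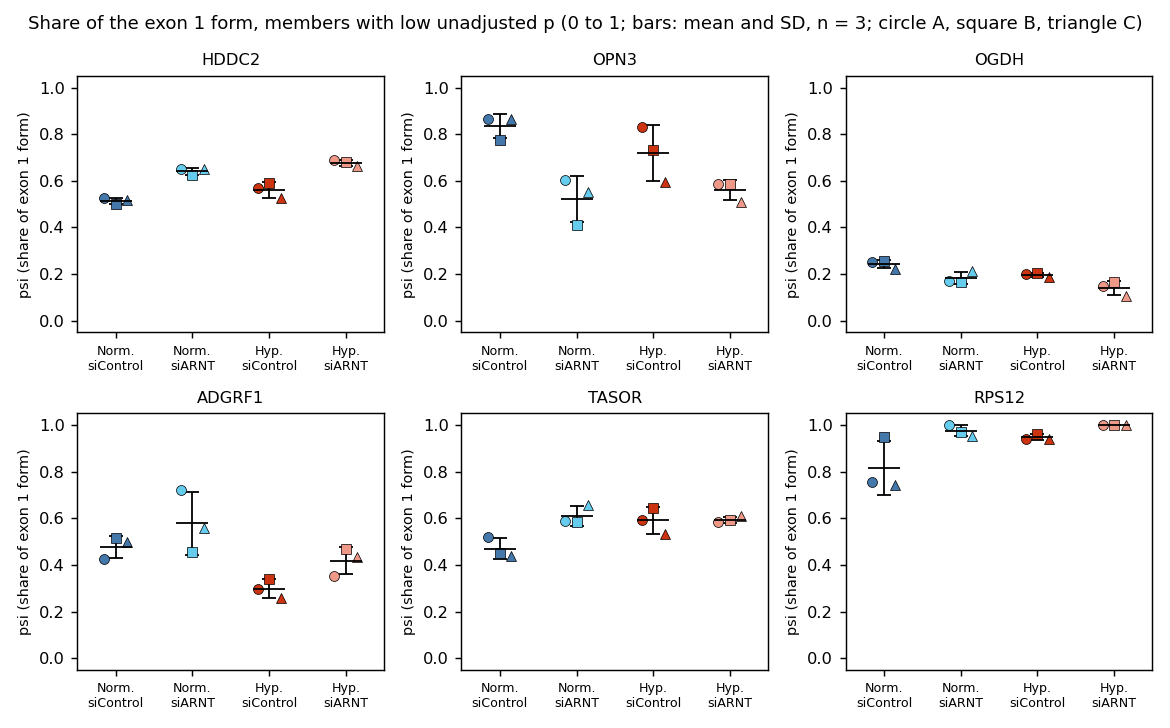
Psi of 6 members with low unadjusted p, for each sample (circle, square and triangle for replicates A, B and C) with the mean and SD of each group of 3, on an axis from 0 to 1. HDDC2 lies between 0.501 and 0.592 in siControl and between 0.625 and 0.688 in siARNT, while in OPN3 and ADGRF1 the replicates of some groups spread over more than 0.1.

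How small a change these data could bound differed between members. The 95% interval of the log2 odds ratio lay wholly within -1 and 1, that is within a 2-fold change of the odds, for 155 members in hypoxia in siControl, 162 in hypoxia in siARNT, 156 in siARNT in normoxia, 135 in siARNT in hypoxia and 91 for the interaction. For the other members changes of that size are neither shown nor bounded. Of the members with intervals within these limits only 16, 16, 21, 12 and 8 were balanced at both exons, in the same order. The balanced members numbered 94 of 388. Of the members at an unadjusted p under 0.05 by edgeR's quasi-likelihood test, 4, 2, 5, 3 and 0 were balanced, in the same order. A difference of psi of at least 0.1, with or without overlap, was seen in 30 members for hypoxia in siControl (4.1% of all events), 16 for hypoxia in siARNT (3.59%), 25 for siARNT in normoxia (4.46%), 20 for siARNT in hypoxia (4.81%) and 38 for the interaction (7.1%), which are 7.73%, 4.12%, 6.44%, 5.15% and 9.79% of the 388 members.

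The genes that hold these exons were tested for their level by edgeR's quasi-likelihood test on gene counts. Of 239 host genes tested, 96 were called for hypoxia in siControl, 29 higher and 67 lower (40.2%, against 25.3% of all 16999 genes, 10.4% higher and 14.9% lower). For hypoxia in siARNT 10 were called, 5 in each direction (4.18%, against 4.09% of all genes, 2.21% higher and 1.89% lower). For siARNT in normoxia 65 were called, 20 higher and 45 lower (27.2%, against 20.2%, 9.42% higher and 10.8% lower), and for siARNT in hypoxia 90, 41 higher and 49 lower (37.7%, against 29.1%, 14.4% higher and 14.7% lower). For the interaction 13 were called, 7 higher and 6 lower (5.44%, against 4.69%, 2.49% higher and 2.19% lower). With total count scaling the split became 69 higher and 42 lower for siARNT in hypoxia, 11 and 7 for hypoxia in siARNT, and 29 and 6 for the interaction. Host genes were chosen for reads over their junctions and so are expressed genes, and the shares are not evidence about the exons.

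Leaving out single libraries moved these counts. For hypoxia in siControl the count fell to 61 without normoxia siControl replicate C. For siARNT in normoxia it fell to 31, 41 and 31 without normoxia siControl replicates A, B and C. For hypoxia in siARNT it ran from 0, without hypoxia siARNT replicate A, to 8 over the 12 libraries left out in turn. For the interaction it ran from 6 to 21, the highest without hypoxia siARNT replicate C.

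The next hosts are those of pairs printed above or of genes on the textbook list, tested by edgeR's quasi-likelihood test on gene counts. MEF2A was lower with siARNT by 0.97 on the log2 scale at 21% O2 (SE 0.076, adjusted p 8.82e-06) and by 1.24 at 1% O2 (SE 0.076, adjusted p 4.74e-07). With hypoxia in siControl it rose by 0.44 (adjusted p 0.00118). RAB6A was lower with siARNT by 0.66 and 0.75 (adjusted p 0.000406 and 6.11e-05), and MAPK8 by 0.50 and 0.28 (adjusted p 0.00278 and 0.0314). GALNT7 was higher with siARNT by 0.27 and 0.47 (adjusted p 0.0403 and 0.00126), and U2AF1 by 0.24 and 0.18 (adjusted p 0.0201 and 0.0469). ACTN4, MAPK14, DNM1 and SLC25A3 were not called in these 2 comparisons. For the MEF2A exon pair the log2 odds ratio of siARNT in hypoxia was -0.60 (95% interval -1.36 to 0.15), within its error.

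Of a list of 57 splicing regulators 53 were expressed enough to be tested. For hypoxia in siControl 17 were called, 8 higher and 9 lower (32.1%, against 25.3% of all genes, 10.4% higher and 14.9% lower), and with total count scaling 5 were higher and 15 lower. The count fell to 10, 11 and 9 without normoxia siControl replicates A, B and C and to 10 without hypoxia siControl replicate A or B. The largest rises were in kinases of SR proteins of the CLK family, CLK1 by 0.76 (SE 0.082, adjusted p 5.83e-05), CLK3 by 0.75 (adjusted p 0.00392) and CLK4 by 0.60 (adjusted p 0.000804). The largest falls were in the SR protein kinases SRPK1, which fell by 0.37 (adjusted p 0.0114), and SRPK2, which fell by 0.32 (adjusted p 0.0117), and in the SR protein gene SRSF10, which fell by 0.31 (adjusted p 0.00918).

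For siARNT in hypoxia 18 regulators were called, 8 higher and 10 lower (34.0%, against 29.1% of all genes, 14.4% higher and 14.7% lower), and with total count scaling 17 were higher and 8 lower. The count was 11 without hypoxia siControl replicate A and 11 without hypoxia siARNT replicate B. ESRP1, the epithelial splicing regulator, fell by 0.91 (SE 0.10, adjusted p 4.5e-05), CLK3 by 0.46 (adjusted p 0.0415) and CLK1 by 0.45 (adjusted p 0.00141). RBM24 rose by 1.09 (adjusted p 0.00236) from a level of 1.24 to 2.62 CPM, SF1 by 0.46 (adjusted p 0.000192) and RBM47 by 0.33 (adjusted p 0.0119). For hypoxia in siARNT 3 were called (5.66%, against 4.09% of all genes). For siARNT in normoxia 11 were called (20.8%, against 20.2% of all genes; 7 without normoxia siControl replicate A and 5 without replicate C). For the interaction edgeR's quasi-likelihood test called 0 (4.69% of all genes), and DESeq2 called 2. The quasi-likelihood test gave 8 of 53 an unadjusted p under 0.05 (15.1%, against 20.8% of all genes). At that threshold it gave 23 for hypoxia in siControl (43.4%, against 36.56%) and 10 for hypoxia in siARNT (18.87%, against 21.21%). It gave 20 for siARNT in normoxia (37.74%, against 38.73%) and 32 for siARNT in hypoxia (60.38%, against 39.51%). SRPK1 is also a host: its balanced pair of 93-base exons had a psi between 0.974 and 0.997 in all 12 samples. Whether the levels of these regulators bear on the exon pairs was not tested.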

How the data were processed

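Poly(A) RNA of 12 AsPC-1 cultures was sequenced as stranded single reads, per the labels' protocols. Trimmomatic, STAR 2.4.2a and GRCh38.p10 are named in the submitters' processing notes, with no role given. The deposited event tables give junction read counts, psi as a fraction and mean exon coverage per sample, per the file headers, and the event caller and the build of the coordinates are not given in the sources used here. The deposited gene tables hold raw read counts, and 22.71 to 25.2% of reads there were in no gene and were left out. Psi as printed was recomputed from the junction counts, and it matched the deposited fraction, which is rounded, within 0.0051 at every value given (4.52% of values over the 520 events were not given). Wells were split between the oxygen levels, per the labels' protocols, and no label says that a replicate letter marks a well. Between oxygen levels, the deviations of same-letter samples from their group means correlated at 0.219 to 0.372 in siControl cells. In siARNT cells they correlated at -0.176 to 0.208, and between the siRNAs at the same oxygen level at -0.386 to 0.198. The main tests used no pairing, in siControl cells either, so their p-values and intervals for hypoxia leave this correlation out. Blocks by replicate letter, over all groups or within each siRNA, were alternatives only. The members and lists were chosen with earlier results of these data known.

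Events with a mean of at least 20 reads per sample (42081 of 5 kinds) were fitted with edgeR 4.0.16 in R 4.3.3, by the quasi-likelihood test with 2 columns per sample (the rounded mean junction count of each form), 1 term per sample and 1 log odds per group. P-values were adjusted by Benjamini-Hochberg over all events, and 0.05 was the threshold. The negative binomial dispersion was set to 0 after the data were seen, in place of a trended one, and both call 0 members. Intervals of 95% use a t quantile of 2.181. Gene counts were fitted by the same test with TMM scaling over 16999 genes. The scripts were tested on simulated data. For hypoxia in siControl the event test recovered 7% of 100 events changed 2-fold in the odds and 38% of 100 changed 4-fold. The changed events were of any kind with at least 5 reads in the minor form, and 5 of 50 calls were false. The gene test recovered 36% of 100 genes changed 1.5-fold and 67% of 100 changed 2-fold. A member that was not called is thus not shown to be unchanged. DESeq2 1.42.0, limma 3.58.1 with a pseudocount of 0.5, other read minimums, single junctions and libraries left out were alternatives. Named events were called members (there were none), the textbook list, the 10 genes with the most reads (1 is not reported here), the events nearest the minimum, ARNT, the regulators with the 3 largest called rises and falls, and the markers. The other genes named, among them RAB6A, GALNT7, ACP1, HDDC2, OPN3, OGDH, TASOR, ADGRF1, CENPC, TIMM50, RPS24 and ATP5PO, were chosen after their values were seen.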

Additional observations from a re-analysis of the deposited data

Results flagged for a closer look

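The level of 13 host genes responded to hypoxia differently in siARNT and in siControl cells, by the interaction term of edgeR's quasi-likelihood test on gene counts (adjusted p under 0.05). That is 5.44% of hosts, against 4.69% of all genes. The count was 6 to 21 with a library left out, 8 with RLE and 35 with total count scaling. The difference of log2 fold changes, siARNT minus siControl, was negative for MUC1 (-1.21), a mucin, TMCC1 (-1.16), VEGFA (-0.77), the angiogenic growth factor, SLC35A3 (-0.55), OPN3 (-0.46) and PAQR5 (-0.37). It was positive for DDC (0.29), AHSA1 (0.36), CCT5 (0.37), MTCH2 (0.42), NUDT5 (0.46), PPIH (0.54) and MCM8 (0.84). These are gene levels, and no mutually exclusive event of these genes was called for the interaction.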

How the results depend on the processing

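Under the alternatives the members called stayed at 0 or reached 1 or 2 of 388. For siARNT in normoxia 1 was called with both forms at 5 reads or more, 1 with summed junctions, 2 with left junctions only, 2 with right junctions only and 1 with the replicate block (HDDC2), and 0 to 1 with a library left out. For siARNT in hypoxia 1 was called with only the groups compared and 1 with DESeq2, which gave no adjusted p for 233 members. For the interaction 1 was called with the replicate block by well and 1 with DESeq2, both ATP5PO, and for hypoxia in siControl 0 to 1 with a library left out. For hypoxia in siControl the replicate block by well called 0. Host genes called for hypoxia in siARNT were 6 with RLE and 18 with total count scaling, and for the interaction 8 and 35. Regulators called were 5 with DESeq2 for hypoxia in siARNT, and for the interaction 2 with total counts, 1 with no filter, 2 with the replicate block and 2 with DESeq2. With a library left out, host genes ranged over 61 to 107, 0 to 8, 31 to 78, 66 to 105 and 6 to 21, and regulators over 9 to 22, 0 to 3, 5 to 14, 11 to 25 and 0 to 3, for hypoxia without and with siARNT, for siARNT at 21% and at 1% O2, and for the interaction. The cause of these shifts was not tested. Depth limits members with few reads, where the minor form had under 5 reads in 90 of 388.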
